A study of Homo sapiens with 12 samples.

Results

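Embryoid bodies of the human embryonic stem cell lines MEL1 and H1 were compared at day 10, across treatments that both lines had received. Members were chosen by their labels alone: 10 of the 12 libraries of the series, 4 from MEL1 and 6 from H1, with no measured value used. The study asks what depletion of METTL14, part of the enzyme that methylates adenosine in RNA to N6-methyladenosine (m6A), changes in such aggregates. Here the lines are compared, with treatment held as a covariate.

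Both lines are established and had been transduced with lentiviral, doxycycline-inducible short hairpin RNA vectors and selected with puromycin. SCR is the control hairpin, and KD1 and KD2 are separate hairpins against METTL14. MEL1 had 1 SCR, 2 KD1 and 1 KD2 library, and H1 had 2 of each. A further hairpin, KD3, was used in H1 only and its 2 libraries were left out. Every library came from aggregates seeded at 500 cells per microwell and kept for 10 days in embryoid body medium with doxycycline at 2 µg/ml, so controls received the drug as well. Total RNA was sequenced from a stranded kit. No label states that libraries of a group came from separate cultures, so the p-values measure only the spread between these samples.

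Embryoid bodies form when pluripotent stem cells aggregate and leave the stem cell state. In media without added germ layer signals, many of their cells take an ectodermal course, either to neuroepithelium, which expresses PAX6 and the forebrain and eye field regulators, or to surface ectoderm, which keeps an epithelium rich in E-cadherin. Lines are known to differ in how fast and in which direction they proceed, and cultured stem cell lines often carry epigenetic silencing or chromosomal changes of their own.

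Values are the deposited estimated counts scaled by library size to CPM, counts relative to a common total, with TMM, the trimmed mean of M-values. Differences are log2 values, MEL1 minus H1, with their standard error (SE), from edgeR's quasi-likelihood test with Benjamini-Hochberg adjustment over 24778 genes. Calls were made below an adjusted p of 0.05, and "higher" or "lower" is written of called genes. Values per library are given for MEL1 in the order SCR, KD1, KD1, KD2. Levels in CPM are not scaled by length and are compared only within a gene. In such bulk RNA, fewer cells of a type and less RNA per cell cannot be told apart.

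The MEL1 SCR library held 15963241 estimated counts and the other 9 held 38887447 to 43508287. Log2 profiles correlated across genes at 0.951 to 0.978 within MEL1, at 0.964 to 0.981 within H1 and at 0.886 to 0.924 between the lines. The first principal component of the 2000 most variable genes held 73.4% of the variance and separated the lines, and the second held 6%. METTL14 was at 49.5 CPM in the MEL1 SCR library, at 7.99 and 5.91 CPM with KD1 and at 8.9 CPM with KD2, and at 10.9 to 43.6 CPM in H1. Its difference between lines was -0.37 (SE 0.21, edgeR adjusted p = 0.184), and it was -0.74 (adjusted p = 0.00676) without the MEL1 SCR library and -0.5 (adjusted p = 0.0415) without the first H1 SCR library. With the KD1 libraries by themselves METTL14 differed by -0.65 (SE 0.2, edgeR adjusted p = 0.0214), and with the knockdown libraries alone by -0.73 (SE 0.16). METTL14 RNA was thus lower in MEL1 among the matched knockdowns. The treatment covariate does not adjust for this, and its part in the differences between the lines was not tested. Mitochondrially encoded genes took 4.82% to 6.79% of MEL1 counts and 2.53% to 3.62% of H1 counts. The rank correlation of a library's deviation with transcript GC content ran from -0.373 in the MEL1 SCR library and -0.36 in an H1 SCR library to 0.359 in an H1 KD1 library, so it varied within both lines. The part of these 2 measures in the differences between the lines was not tested beyond a fit with the GC and length trend removed.

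Of the 24778 genes tested, 10826 were called, which is 43.7%. MEL1 was higher in 5349 genes (21.6%) and lower in 5477 (22.1%). A change of at least 4-fold was called for 1346 genes higher and 1322 lower in MEL1. The libraries of the 2 lines did not overlap in 6791 genes (27.4%). Among called genes, 10410 (96.2%) differed in the same direction within SCR, KD1 and KD2. These shares are the background against which each gene group below is read, and the median over all tested genes was -0.04. The groups are lists of known markers, described by their counts and medians. They were written with earlier results of these data known.

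Genes of the pluripotent state were higher in MEL1, 24 of 30, with a median difference of 2.09. Their summed level was 6425 to 10477 CPM in the MEL1 libraries and 3055 to 3333 CPM in H1. POU5F1 (OCT4, ENSG00000204531), the core pluripotency regulator on chromosome 6, was at 492, 793, 874 and 239 CPM in MEL1. The 6 H1 libraries ran from 21.7 to 61.9 CPM with a median of 30.8. All MEL1 libraries were therefore above all H1 libraries, with the KD2 library lowest in MEL1, and the difference was 3.94 (SE 0.42, edgeR adjusted p = 0.000156). NANOG (ENSG00000111704), its partner in the same network, was at 44.6, 76.6, 81.4 and 32.6 CPM in MEL1 and at 1.51 to 7.01 CPM in H1 with a median of 3.02, again without overlap. Its difference was 4.15 (SE 0.53, edgeR adjusted p = 0.00044). NANOG and GDF3, a TGF-beta family ligand of stem cells (5.29, SE 0.65), lie on the first 40 Mb of chromosome 12, where most genes were higher in MEL1, as described with the chromosome windows.

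Other members were further apart or less so. ESRG, a long noncoding RNA of human pluripotent cells, was at 1488, 1348, 1122 and 745 CPM in MEL1 and at 34.5 to 58.6 CPM in H1, a difference of 4.76 (SE 0.22, edgeR adjusted p = 2.64e-08). TDGF1, the Nodal co-receptor, was at 254, 293, 360 and 102 CPM in MEL1 and at 4.7 to 21.8 CPM in H1 (4.53, SE 0.64). FGF4, a growth factor made by stem cells, was at 4.33 to 8.88 CPM in MEL1 and at 0.0481 to 0.138 CPM in H1 (6.01, SE 0.3). PRDM14, a repressor of differentiation (4.13, SE 0.33), UTF1, a chromatin factor of stem cells (2.7, SE 0.27), DNMT3B, the de novo DNA methyltransferase (2.03, SE 0.24), and DPPA4 (1.38, SE 0.18) were higher as well. The RNA-binding protein gene LIN28A, which persists into early neural progenitors, was higher by less, at 1508 to 1808 CPM in MEL1 and 823 to 1126 CPM in H1 (0.77, SE 0.11). The 2 members called lower were SOX2, which also marks neural progenitors (-0.63, SE 0.17, edgeR adjusted p = 0.0091), and SALL4 (-0.33, SE 0.12, adjusted p = 0.032). SALL4 was not called when either MEL1 KD1 library, the MEL1 KD2 library, the first H1 SCR library, either H1 KD1 library or the second H1 KD2 library was left out. POU5F1, NANOG and other genes with near-identical pseudogene copies have estimated counts that depend on how reads were divided between the copies.

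**Figure D1:**
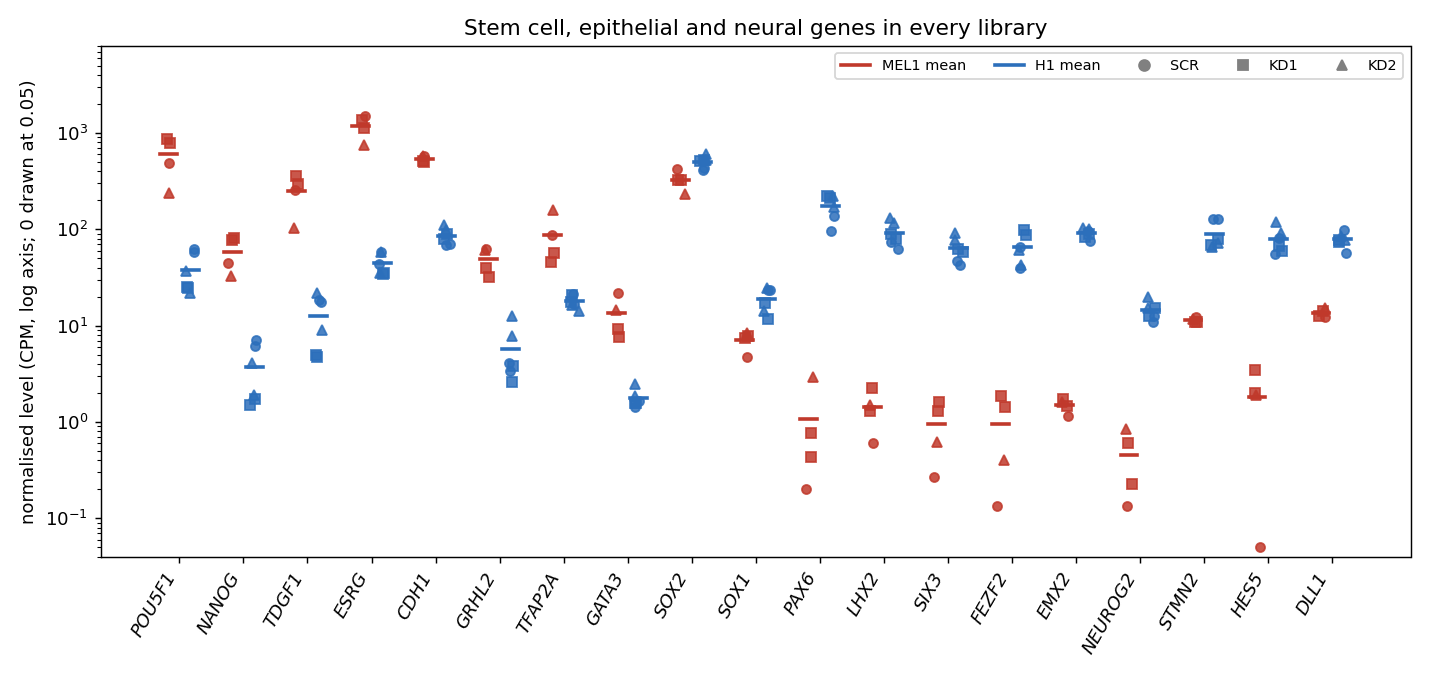
Level of 19 genes in every library, in CPM on a log axis with 0 drawn at 0.05; circles are SCR, squares KD1, triangles KD2, red MEL1 and blue H1, and bars are line means. Stem cell and epithelial genes on the left stand higher in MEL1, from POU5F1 at 239 to 874 CPM against 21.7 to 61.9 CPM, while PAX6 and the forebrain genes on the right stand at 2.91 CPM or less in MEL1.

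Epithelial genes moved with the stem cell genes. Of 16 tested genes of surface ectoderm and epithelium, 15 were higher in MEL1 and none was lower, with a median of 1.86, and their sum was 3104 to 3847 CPM in MEL1 and 1290 to 1757 CPM in H1. CDH1, which encodes E-cadherin, was at 578, 497, 507 and 572 CPM in MEL1 and at 67.9 to 111 CPM in H1 with a median of 84.3. The lines did not overlap and differed by 2.69 (SE 0.11, edgeR adjusted p = 3.87e-09). EPCAM, an adhesion molecule of epithelia and of stem cells, was at 115 to 228 CPM in MEL1 and 29.6 to 40.6 CPM in H1 (2.34, SE 0.14). CLDN6, a tight junction protein of embryonic epithelium, was at 517 to 719 CPM in MEL1 and 102 to 127 CPM in H1 (2.37, SE 0.12). GRHL2, a regulator that maintains epithelium, was at 62, 40.1, 32.2 and 61 CPM in MEL1 and at 2.57 to 12.6 CPM in H1, where the 2 KD2 libraries were highest, a difference of 3.42 (SE 0.24). KRT18, a keratin of simple epithelia, differed by 0.52 (SE 0.11). Several of these genes are also expressed by undifferentiated stem cells.

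TFAP2A, which is shared by surface ectoderm, neural crest and amnion, was at 86.3, 57.1, 45.9 and 160 CPM in MEL1 and at 14.2 to 21.3 CPM in H1, with a difference of 2.24 (SE 0.3, edgeR adjusted p = 0.000259). Of 18 tested trophoblast and amnion genes, 13 were higher in MEL1 and 1 was lower, with a median of 2.28. Their sums overlapped, at 154 to 370 CPM in MEL1 and 71.1 to 170 CPM in H1. GATA3, an early regulator of trophoblast and surface ectoderm, was at 22, 9.33, 7.68 and 14.7 CPM in MEL1 and at 1.42 to 2.46 CPM in H1 (2.95, SE 0.23). GABRP, a receptor subunit found in amnion, was at 7.48 to 10.7 CPM in MEL1 and 0.102 to 0.852 CPM in H1 (4.46, SE 0.33), and WNT6 was at 1.32 to 6.15 and 0.0503 to 0.459 CPM (4.52, SE 0.37). HAND1 and ISL1, regulators of amnion and also of cardiac mesoderm, reached 4.32 and 3.45 CPM in MEL1 and stayed at or under 0.201 and 0.0933 CPM in H1. The member called lower was IGFBP3, an insulin-like growth factor binding protein (-1.34, SE 0.19).

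Neural progenitor genes were lower in MEL1. Of 23 tested, 15 were lower and 1 was higher, with a median of -1.09 and sums of 1937 to 2514 CPM in MEL1 and 3978 to 4445 CPM in H1. PAX6 (ENSG00000007372), the paired box regulator of neuroectoderm on chromosome 11, was at 0.203, 0.763, 0.428 and 2.91 CPM in MEL1. H1 ran from 95.4 to 223 CPM with a median of 190. The highest MEL1 library, KD2, was far below the lowest H1 library, and the difference was -7.39 (SE 0.53, edgeR adjusted p = 1.26e-05). SOX1, another early neuroectoderm gene, was at 4.73, 7.48, 7.76 and 8.3 CPM in MEL1 and at 11.8 to 24.3 CPM in H1 (-1.34, SE 0.24). ZIC1 differed by -4.55 (SE 0.37), and VIM, the intermediate filament gene vimentin, by -1.06 (SE 0.17). The member called higher in MEL1 was FGFR3, a growth factor receptor, at 71.7 to 102 CPM against 27.8 to 49.4 CPM (1.01, SE 0.12).

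Regulators of forebrain and eye field gave the largest median of the lists, -4.29, with 16 of 22 lower and 1 higher in MEL1. EMX2 (ENSG00000170370), a regulator of dorsal telencephalon, was at 1.15, 1.73, 1.48 and 1.61 CPM in MEL1 and at 75.4 to 104 CPM in H1 with a median of 92.7 (-5.9, SE 0.15, edgeR adjusted p = 6.5e-11). LHX2, needed for both cortex and eye, was at 0.609 to 2.24 CPM in MEL1 and 62.7 to 130 CPM in H1 (-5.99, SE 0.23). In neither of these genes did the lines overlap. The eye field genes SIX3 (-6.07, SE 0.31) and RAX (-6.57, SE 0.5) and the forebrain regulator FEZF2 (-6.35, SE 0.34) were low in MEL1 by a like amount, and none of them exceeded 1.85 CPM in a MEL1 library. OTX2, which marks stem cells leaving pluripotency as well as forebrain and midbrain, differed by less: 72.6 to 124 CPM in MEL1 and 111 to 192 CPM in H1, with overlapping lines (-0.76, SE 0.18, edgeR adjusted p = 0.00504). The member called higher was TCF7L2, a Wnt effector (0.33, SE 0.1), which lost its call without the MEL1 SCR library.

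Genes of early neurons followed, with 15 of 25 lower and 4 higher and a median of -0.97. NEUROG2, a proneural factor, was at 0.135, 0.61, 0.228 and 0.85 CPM in MEL1 and at 11 to 19.8 CPM in H1 (-4.9, SE 0.3, edgeR adjusted p = 9.89e-08). STMN2, a microtubule regulator of growing axons, was at 10.8 to 12.2 CPM in MEL1 and 65.2 to 128 CPM in H1 (-2.86, SE 0.14). Neither gene overlapped between the lines. NEUROD1 (-5, SE 0.35), NHLH1 (-3.29, SE 0.26), DCX, the microtubule protein doublecortin (-1.09, SE 0.18), and TUBB3, neuronal tubulin (-0.92, SE 0.18), were lower as well. Among those called higher were ISL1, a regulator of motor and sensory neurons (5.09, SE 0.47), ONECUT1 (1.08, SE 0.22) and RBFOX3, a splicing factor of neurons (0.63, SE 0.17).

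The Notch pathway, by which cells of neuroepithelium hold their neighbours in the progenitor state, was lower across its parts. Of 19 ligands, receptors, modifiers and HES targets, 14 were lower and none was higher, with a median of -1.36 and sums of 676 to 1118 CPM in MEL1 and 1258 to 1766 CPM in H1. The ligand DLL1 was at 12.2, 14.3, 12.5 and 15.1 CPM in MEL1 and at 57 to 98.8 CPM in H1 (-2.53, SE 0.16, edgeR adjusted p = 9.54e-08). The ligand DLL4 (-2.36, SE 0.47) and MFNG, a glycosyltransferase that modifies Notch receptors (-2.47, SE 0.17), were lower too. HES5, a direct target in neural progenitors, had no count in the MEL1 SCR library and was at 1.98, 3.45 and 1.92 CPM in the others, against 55.2 to 119 CPM in H1 (-5.38, SE 0.56, edgeR adjusted p = 0.000137). HES1, a target active in many cell types, was at 21.1 to 38.5 CPM in MEL1 and 29.2 to 46.7 CPM in H1. It was not called (-0.37, SE 0.17, adjusted p = 0.0944), but was called without the MEL1 SCR library (-0.57) and without the second H1 SCR library (-0.47).

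Dorsal neural tube and neural crest genes did not follow the forebrain list. Of 24 tested, 14 were higher in MEL1 and 2 were lower, with a median of 1.2. FOXD3, shared by stem cells and crest, was at 17, 11.6, 12.2 and 47.5 CPM in MEL1 and 0.688 to 5.63 CPM in H1 (3.17, SE 0.64, edgeR adjusted p = 0.00498). ETS1, a crest and endothelial factor, was at 30, 16.7, 13.6 and 59.2 CPM in MEL1 and 2.46 to 6.93 CPM in H1 (2.87, SE 0.41), and TWIST1, a regulator of mesenchyme, reached 9.47 CPM in the MEL1 SCR library and 0.816 CPM at most in H1 (3, SE 0.46). In FOXD3, ETS1 and TFAP2A the KD2 library was the highest of MEL1. SOX10, a defining gene of crest, was at 15.8, 18.8, 15.3 and 41.3 CPM in MEL1 and 6.66 to 18.5 CPM in H1, overlapping and not called (0.79, SE 0.36, edgeR adjusted p = 0.101). It was called higher with DESeq2 (adjusted p = 0.0289), and by edgeR with the GC and length trend removed (adjusted p = 0.0358), in the fit of group means (adjusted p = 0.0201) and with no filter on low counts (adjusted p = 5.88e-06). The dorsal genes PAX3 (-0.4, SE 0.41) and MSX1 (-0.92, SE 0.39) were not called over the 10 libraries in the fit with treatment as a covariate. Over the same 10 libraries MSX1 was called lower with DESeq2 (adjusted p = 0.0108), without edgeR's robust setting (adjusted p = 0.0484), with group means and with no filter. PAX3 was called lower by edgeR with group means (adjusted p = 0.00799) and with no filter (adjusted p = 0.00865). Without the MEL1 KD2 library both were lower in MEL1, PAX3 by -1.13 and MSX1 by -1.63, and 5 members of the list were called lower. The 2 called lower over all libraries were ZIC4 (-3.48, SE 0.43) and SOX5 (-1.09, SE 0.24).

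Posterior identity was scarce in both lines. All 30 HOX genes listed, the regulators of position along the trunk and hindbrain, had means under 1 CPM in MEL1 and in H1, and the 1 that could be tested was not called. Their sums were 0.271 to 0.712 CPM in MEL1 and 0.0466 to 0.213 CPM in H1. Among 21 tested midbrain, hindbrain and spinal cord genes, 5 were lower and 3 were higher, and 11 were lower without the MEL1 KD2 library. FGF8, the signal of the midbrain-hindbrain boundary and of the anterior forebrain, was at 0.203, 0.763, 1.08 and 1.03 CPM in MEL1 and 12.4 to 45.3 CPM in H1 (-4.7, SE 0.28, edgeR adjusted p = 7.73e-08). LMX1B, a regulator of midbrain and hindbrain roof, was at 13.4, 12.6, 8.96 and 53.8 CPM in MEL1 and at 1.01 to 2.96 CPM in H1 (3.34, SE 0.51).

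Signalling genes split within pathways. Among FGF and sonic hedgehog genes, 11 of 23 were lower in MEL1 and 9 were higher. The feedback inhibitors of FGF signalling DUSP6, a phosphatase, at 22.3 to 31.9 CPM in MEL1 and 134 to 291 CPM in H1 (-2.74, SE 0.13), and SPRY2, at 35.9 to 47.6 and 145 to 211 CPM (-2.11, SE 0.13), were lower. Targets of the hedgehog pathway were higher: GLI1, its transcriptional effector, was at 9.2, 12.6, 11.7 and 8.95 CPM in MEL1 and 0.98 to 1.54 CPM in H1 (3.13, SE 0.2, edgeR adjusted p = 1.42e-07). PTCH1, the receptor, differed by 0.94 (SE 0.15) and HHIP, a secreted inhibitor, by 3.66 (SE 0.42). The ligand FGF19 was higher (2.39, SE 0.2), while FGF9 was at 0.135 CPM or less in MEL1 and 1.58 to 3.83 CPM in H1 (-5.66, SE 0.5).

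Of 30 Wnt genes, 13 were lower and 6 higher in MEL1, with a median of -0.29. The ligands WNT7B, at 2.43, 3.13, 1.97 and 8.66 CPM in MEL1 and 51.5 to 90.7 CPM in H1 (-4.17, SE 0.32), and WNT5B (-3.52, SE 0.2) were lower, as was the R-spondin receptor LGR5, at 0.285 to 1.36 and 9.97 to 18 CPM (-4.32, SE 0.27). WNT5B lies on the first 40 Mb of chromosome 12 and so goes against its neighbours. WNT4 (1.79, SE 0.29), the Wnt-responsive inhibitors AXIN2 (1.23, SE 0.24) and NOTUM (1.69, SE 0.36), and TCF7, a Wnt effector (1.47, SE 0.15), were higher. AXIN2 lies on chromosome 17, whose genes had a median of 0.4. It differed by 0.77 (SE 0.19) with SCR, 0.77 (SE 0.16) with KD1 and 2.23 (SE 0.19) with KD2. The single MEL1 KD2 library was the highest of MEL1 for AXIN2, at 187 CPM. For WNT4 that library was at 24.3 CPM and the next MEL1 library at 7.24 CPM. Of 26 BMP, Nodal and TGF-beta genes, 8 were higher and 3 lower, with 7 lower when the MEL1 KD2 library was left out. ID1, a target of BMP signalling, was at 157, 233, 289 and 179 CPM in MEL1 and 91.8 to 154 CPM in H1, without overlap (0.84, SE 0.19, edgeR adjusted p = 0.00323). BAMBI, a decoy receptor, differed by 1.84 (SE 0.14) and NODAL by 3.65 (SE 0.6), from 0.97 to 2.01 CPM in MEL1.

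**Figure D2:**
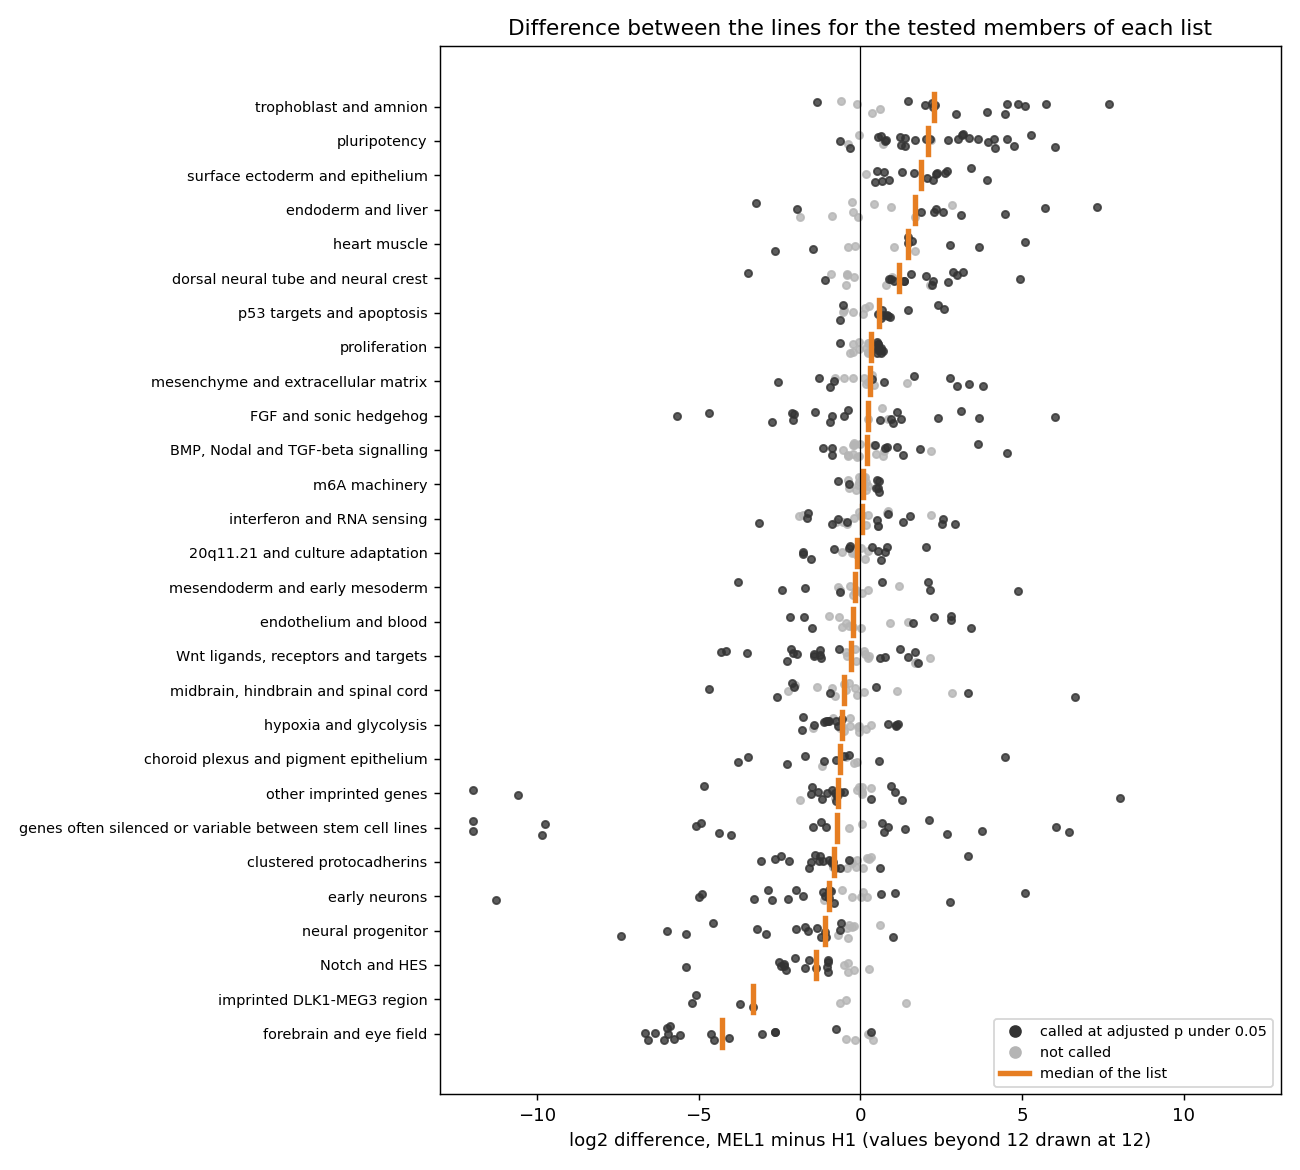
Log2 difference, MEL1 minus H1, of every tested member of 28 gene lists, black where called and grey where not, with the list median as an orange bar; differences beyond 12 are drawn at 12. The medians run from 2.28 for trophoblast and amnion genes to -4.29 for forebrain and eye field genes, and the HOX list, with 1 tested gene, is not drawn.

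Mesoderm, endoderm and blood vessel genes were mixed and mostly low. Among 17 mesendoderm and early mesoderm genes, 4 were higher and 4 were lower, and leaving out the MEL1 KD2 library left 1 higher. The count higher was 2 without the first H1 KD1 or either H1 KD2 library, and the count lower was 2 without either MEL1 KD1, the first H1 SCR or either H1 KD1 library. EOMES, a T-box regulator of mesendoderm that also marks cortical intermediate progenitors, was at 0.738 to 0.97 CPM in MEL1 and 8.94 to 16 CPM in H1 (-3.78, SE 0.18, edgeR adjusted p = 8.4e-09). In the endothelium and blood list, 5 of 17 were higher and 3 lower. FLT1, a VEGF receptor, was at 38.1, 27.2, 24.1 and 21.9 CPM in MEL1 and 2.38 to 7.73 CPM in H1 (2.81, SE 0.3). The endothelial cadherin gene CDH5, a defining marker of vessels, was near 0 in both, at 0.2 to 0.403 CPM in MEL1 and 0.704 to 2.09 CPM in H1 (-1.75, SE 0.37). KDR, the other main VEGF receptor, overlapped and was not called (-0.23, SE 0.17, edgeR adjusted p = 0.297), but differed by -0.58 without the MEL1 KD2 library.

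Of 12 tested heart muscle genes, 6 were higher and 2 were lower. Their summed levels were 20.6 to 28.4 CPM in MEL1 and 9.79 to 18.8 CPM in H1, and 11 of the 16 listed were under 1 CPM in both lines. RYR2, the calcium release channel, accounted for 3.94 to 12.7 CPM in MEL1 and 0.816 to 1.63 CPM in H1 (2.76, SE 0.27). For endoderm and liver, 8 of 19 were higher and 2 lower, and without the MEL1 KD2 library 4 were higher and 5 lower. The count of those lower was 1 without the MEL1 SCR, either MEL1 KD1, the second H1 SCR or the second H1 KD1 library. AFP, alpha-fetoprotein, was at 3.04, 0.153, 0.257 and 7.85 CPM in MEL1 and at most 0.12 CPM in H1 (5.72, SE 0.72, edgeR adjusted p = 4.94e-05), and TTR, transthyretin, was at 0.812, 0.153, 0.0571 and 3.15 CPM against at most 0.341 CPM, so TTR overlapped between the lines. SOX17, a defining gene of endoderm, was at or under 0.114 CPM in every library. CXCR4, a chemokine receptor of definitive endoderm and of neural cells, was lower (-1.96, SE 0.27). Among 20 mesenchyme and matrix genes, 7 were higher and 4 lower: COL3A1, a fibrillar collagen, was at 3.92 to 18.9 CPM in MEL1 and 0.629 to 1.28 CPM in H1 (3.78, SE 0.38), and FBN1, fibrillin, was at 12.6 to 31.9 and 89.1 to 140 CPM (-2.54, SE 0.18).

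A separate set of genes was on in H1 and close to 0 in MEL1. With a mean of at least 5 CPM in H1 and under 0.1 CPM in MEL1, 44 genes qualified, of which 16 had no count in any MEL1 library. In the opposite direction 17 qualified, with 4 at no count in H1. This pair of thresholds was chosen after the values were seen. NNAT (ENSG00000053438), an imprinted gene of neural and endocrine cells on chromosome 20 at 37521206 to 37523693, had no count in any MEL1 library and was at 340 to 505 CPM in H1 with a median of 453. Against a floor of 3 counts over the 4 MEL1 libraries it was at least 19335-fold higher in H1. CAT, the peroxide-degrading enzyme catalase, was at 0.0895 CPM in the MEL1 KD2 library and at 0 in the other 3, against 26.8 to 33.9 CPM in H1 (-9.86, SE 0.36, edgeR adjusted p = 1.3e-09). CHCHD2, which encodes a mitochondrial protein, was at 0.134 CPM or less in MEL1 and 51.5 to 77 CPM in H1 (-9.75, SE 0.32), and OXCT1, an enzyme of ketone body use, was at 0.153 CPM or less and 22.9 to 52.1 CPM (-8.64, SE 0.38). JRK was at 0.114 CPM or less in MEL1 and 56.6 to 68 CPM in H1 (-9.94, SE 0.25). The neuronal RNA-binding protein gene ELAVL4 had no count in MEL1 and was at 6.82 to 12.7 CPM in H1, at least 389-fold. TSPYL5, a gene often reported as silenced in stem cell lines, had none either, against 16.2 to 22.1 CPM, at least 865-fold.

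**Figure D3:**
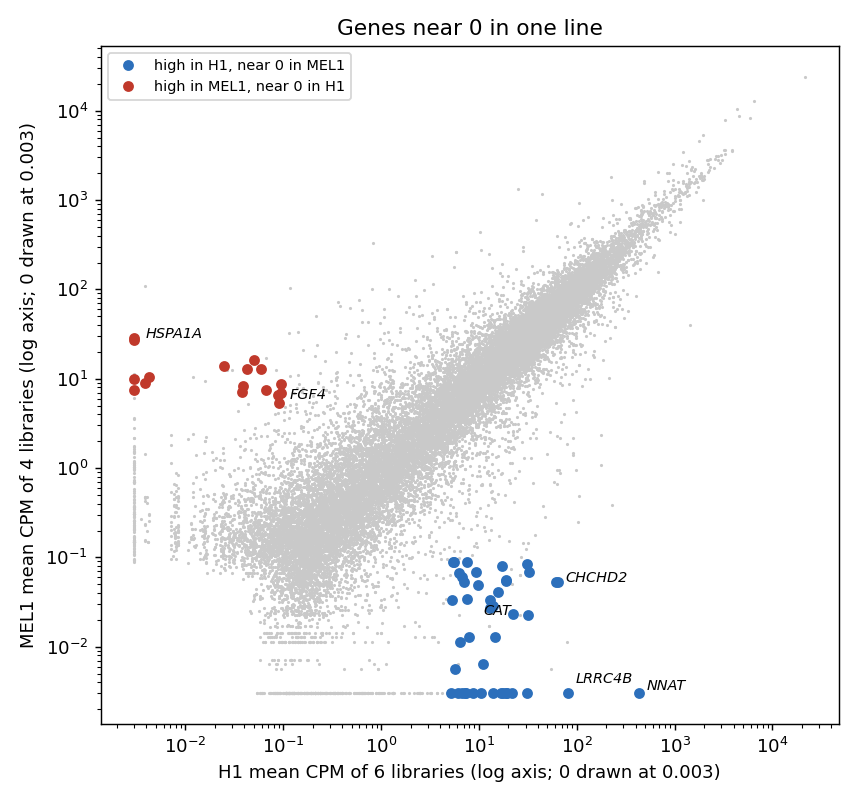
Mean CPM of each tested gene in the 6 H1 libraries against the 4 MEL1 libraries, on log axes with 0 drawn at 0.003; blue marks the 44 positioned genes high in H1 and near 0 in MEL1, and red the 17 in the opposite direction. NNAT is farthest to the right on the lower edge, at 433 CPM in H1 and no count in MEL1.

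Zinc finger genes made up much of that set. Of the 44, 40 were protein coding, and 22 of these had zinc finger symbols. Among all 16509 tested coding genes, 542 had such symbols. On chromosome 19 lay 23 of the 44. That chromosome held 1165 of the 15565 positioned genes averaging 1 CPM or more. Over the genome, 232 of 542 tested protein-coding zinc finger genes were lower in MEL1 and 51 were higher, with a median of -0.29. Of the other protein-coding genes, 23.2% were lower, with a median of 0.02. On chromosome 19 the contrast was smaller. There 48.4% of 254 zinc finger genes and 34.1% of 992 other coding genes were lower, with medians of -0.42 and -0.22. On the other chromosomes 37.8% of 288 zinc finger genes were lower, with a median of -0.26. At least 4-fold lower were 66 zinc finger genes and at least 4-fold higher were 7. Among 15967 other coding genes, 591 were at least 4-fold lower and 749 at least 4-fold higher. Chromosome 19 as a whole was lower in MEL1, with a median of -0.26, 472 of 1165 genes lower and 141 higher. Its median deviation from the H1 mean was -0.51 for MEL1 SCR, -0.08 and -0.07 for the MEL1 KD1 libraries, -0.23 for MEL1 KD2, and -0.15 to 0.14 over the 6 H1 libraries. The median difference was -0.21 without the MEL1 SCR library and -0.11 with the trend with GC content and length removed. ZNF253 (no count in MEL1 and 23.7 to 41.2 CPM in H1, at least 1389-fold), ZNF177 (11.6 to 16.2 CPM in H1, at least 624-fold) and ZNF582 (6.43 to 8.22 CPM in H1, at least 324-fold) were among the 12 largest falls named by rule. Zinc finger families hold similar sequences, and ZNF177 shares exons with a readthrough gene, so the division of reads among them is uncertain. These 3 genes had no count in any of the 4 MEL1 libraries.

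In a stretch of chromosome 19, genes near 0 in MEL1 stood side by side. Between 50152548 and 50804929 in GENCODE 29 on GRCh38, 16 genes had a mean of at least 1 CPM in a line, and 12 of them were at least 4-fold lower in MEL1. Of all tested genes, 5.34% were called at least 4-fold lower. The ends of the stretch were set after its genes near 0 in MEL1 were seen, so that choice fixes its share and the count is a description. LRRC4B, a synaptic adhesion molecule, had no count in MEL1 and was at 59.1 to 97.9 CPM in H1 with a median of 82.8, at least 3595-fold. SHANK1, a synaptic scaffold (6.2 to 7.39 CPM in H1), and GARIN5A (6.28 to 14.6 CPM) also had no count in MEL1. EMC10, a subunit of a membrane protein insertion complex, was at 0.153 to 0.403 CPM in MEL1 and 86.3 to 113 CPM in H1 (-8.57, SE 0.19, edgeR adjusted p = 4.48e-11), MYH14, a non-muscle myosin, at 0.102 to 0.47 and 29.6 to 63.8 CPM (-7.49, SE 0.31), and CLEC11A, a secreted growth factor, at 0.134 CPM or less and 10.1 to 16.3 CPM (-8.17, SE 0.51). Genes among them stayed on: POLD1, a DNA polymerase subunit, was at 41.1, 88.1, 84.8 and 54 CPM in MEL1 and 87.5 to 120 CPM in H1 (-0.74, SE 0.17), NR1H2, a sterol receptor, at 12 to 24.6 and 22.9 to 34.5 CPM (-0.62, SE 0.19), and the last gene of the stretch, C19orf48P, had means of 74 and 66.8 CPM. GARIN5A overlaps EMC10, so reads there could be divided between them. NR1H2 was not called without the MEL1 SCR or the MEL1 KD2 library. On chromosome X, MAGEH1 (14.3 to 22.8 CPM in H1), USP51 (4.11 to 8.28 CPM) and RRAGB, a subunit of the amino acid sensing GTPases (17.5 to 24.7 CPM), had no count in MEL1 and lie between 55452105 and 55758774.

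The sequences just before the start sites of 3 of these genes with no count in MEL1 are shown with their CpG, the sites at which DNA can be methylated. Methylation was not measured and its part was not tested. The letters are the 150 bases before the RefSeq start site on GRCh38.p14, 5′ to 3′ on the gene's strand, with each CpG in capitals. The start used for LRRC4B lies inside the longer GENCODE gene.
ZNF582, chr19:56393535-56393684, minus strand: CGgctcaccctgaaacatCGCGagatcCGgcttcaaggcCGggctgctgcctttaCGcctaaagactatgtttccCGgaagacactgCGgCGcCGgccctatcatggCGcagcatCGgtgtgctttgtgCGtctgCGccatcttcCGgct
ZNF177, chr19:9362863-9363012, plus strand: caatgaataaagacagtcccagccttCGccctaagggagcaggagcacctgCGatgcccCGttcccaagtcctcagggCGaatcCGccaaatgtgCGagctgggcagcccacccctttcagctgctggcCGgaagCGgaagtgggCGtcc
LRRC4B, chr19:50551043-50551192, minus strand: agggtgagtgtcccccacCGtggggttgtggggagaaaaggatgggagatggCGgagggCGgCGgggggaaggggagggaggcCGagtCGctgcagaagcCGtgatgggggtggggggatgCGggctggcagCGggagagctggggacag
The 150 bases shown hold 15 CpG for ZNF582 and 9 each for ZNF177 and LRRC4B. The window of 250 bases before to 50 after the start held 30 CpG for ZNF582, and 79.6% of all 27305 promoter windows of that length held no more. ZNF177 held 14 and LRRC4B 16, with 51.2% and 54% of windows holding no more, and the median window held 14. ZNF582 therefore stood above the median window and the other two were near it. The noncoding gene ZNF582-DT, whose GENCODE start at 56393656 lies inside the stretch shown for ZNF582, was near 0 in MEL1 as well, at 0.134 CPM or less against 6.35 to 7.8 CPM.

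Imprinted genes, which are read from the copy of a single parent, were lower in MEL1 more often than higher. In the DLK1-MEG3 region of chromosome 14, 4 of 7 tested genes were lower and none was higher, with a median of -3.33. DLK1, a Notch-like ligand expressed from the paternal copy, was at 21.8, 42.1, 57.9 and 39.9 CPM in MEL1 and at 780 to 2309 CPM in H1 with a median of 1444, well apart (-5.21, SE 0.21, edgeR adjusted p = 3.47e-09). RTL1, also paternal, was at 0.135 to 0.537 CPM in MEL1 and 2.48 to 5.58 CPM in H1 (-3.71, SE 0.29), and the neighbouring BEGAIN differed by -3.33 (SE 0.27). MEG3, a noncoding RNA read from the maternal copy, was at 0.203, 0.28, 0.228 and 0.447 CPM in MEL1 and at 3.01 to 13.7 CPM in H1 with a median of 11.3, with no overlap (-5.08, SE 0.27, edgeR adjusted p = 2.66e-08). MEG8, also maternal, was at 0.826 CPM or less in every library and not called (-0.64, SE 0.45, edgeR adjusted p = 0.267). Of 28 other imprinted genes, 14 were lower and 5 higher. NAP1L5 had no count in MEL1 and 4.45 to 5.88 CPM in H1, at least 232-fold. SGCE was lower (-1.5, SE 0.11), SNRPN, the spliceosomal gene of the Prader-Willi region, was higher at 461 to 992 CPM against 275 to 345 CPM (1.08, SE 0.14), and IGF2, the fetal growth factor, differed by -0.89 (SE 0.18). PEG3 had no count in any of the 10 libraries, and H19 did not exceed 0.0503 CPM.

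Clustered protocadherins, cell surface proteins whose promoters are chosen at random in single neurons, also differed promoter by promoter. Of 29 tested, 17 were lower in MEL1 and 2 were higher, with a median of -0.83. PCDHA6 was at 1.35, 5.01, 3.97 and 2.08 CPM in MEL1 and 19.5 to 29.6 CPM in H1 (-3.07, SE 0.34), and PCDHGB6 at 6.28 to 14.1 and 53 to 65.9 CPM (-2.63, SE 0.19). PCDHA1, from the same alpha cluster, went the other way, at 2.84, 3.59, 5.68 and 3.47 CPM in MEL1 and 0.0765 to 0.56 CPM in H1 (3.34, SE 0.33, edgeR adjusted p = 6.01e-06). Transcripts of a cluster share their last exons, so part of each estimate depends on how shared reads were divided.

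Among genes higher in MEL1, the largest differences included noncoding RNAs. LINC00458, a noncoding RNA of pluripotent cells, was at 82.7, 67.5, 61.7 and 51.1 CPM in MEL1 and 0.201 to 0.551 CPM in H1 (7.43, SE 0.22, edgeR adjusted p = 2.44e-10). LINC00836 (7.71, SE 0.3), LINC00707 (8.09, SE 0.38) and LINC01108 (7.19, SE 0.61) were at 0.192 CPM or less in H1. MIR210HG, host of a microRNA induced by low oxygen, had no count in H1 and was at 4.06 to 12.4 CPM in MEL1, at least 632-fold. NLRP2, an oocyte and early embryo gene, was at 8.57 to 17.7 CPM in MEL1 and 0.0918 CPM or less in H1 (8.03, SE 0.36). HPR and ZNF280B each had 1 count over the 6 H1 libraries, against 1590 and 1138 over the 4 MEL1 libraries. Their depth-scaled ratios were 2656 (95% interval 477 to 104893) and 2251 (404 to 88902), covering counting error only. One of the 17 genes near 0 in H1, the processed pseudogene RPL39P3, reached 108 CPM in a MEL1 library and was listed at 0 in at least 1 other.

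HSPA1A, an inducible heat shock protein gene, had no count in H1 and was at 10.6, 44, 52 and 9.06 CPM in MEL1, at least 2449-fold. It lies with PPT2, a lysosomal thioesterase gene (11.4 to 16.7 CPM in MEL1, at most 0.102 CPM in H1), and TAP2, a peptide transporter gene (6.08 to 11.4 CPM, at most 0.0481 CPM), in or near the major histocompatibility region of chromosome 6, as does ZBTB9 (18.1 to 22.9 CPM, at most 0.478 CPM). Reference assemblies carry alternative versions of this region. Of 1853 tested identifiers absent from the name table, 20 had a mean of at least 5 CPM in H1 and under 0.2 CPM in MEL1, and 12 the reverse, summing to 363 and 317 CPM. Whether these hold the missing counts of such genes was not tested, so the differences of HSPA1A, PPT2, TAP2 and ZBTB9, and in part that of POU5F1, are uncertain.

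Neighbouring genes moved together on parts of the genome. On the first 40 Mb of chromosome 12, the median difference of the 231 genes that averaged 1 CPM or more was 1.01, and 170 were higher and 14 lower in MEL1. The remaining 591 genes of the chromosome had a median of -0.08. Every library showed it: the median deviation there was 0.96, 0.9, 0.89 and 1.01 in MEL1 and -0.06 to 0.07 in the H1 libraries. The 4 windows of 10 Mb in that stretch, with medians of 0.97, 0.85, 1.24 and 1.01, were the 4 highest of 294 windows. The end at 40 Mb was not planned beforehand. It lies where the window median falls from 1.01 to -0.21. That choice shapes the contrast with the rest of the chromosome, so these medians and ranks are a description. The 929 genes of chromosome 17 had a median of 0.4, with 488 higher and 94 lower and deviations of 0.29 to 0.47 in MEL1. All other chromosomes together had a median of -0.05. DNA copy number was not measured, and its part in these medians was not tested.

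**Figure D4:**
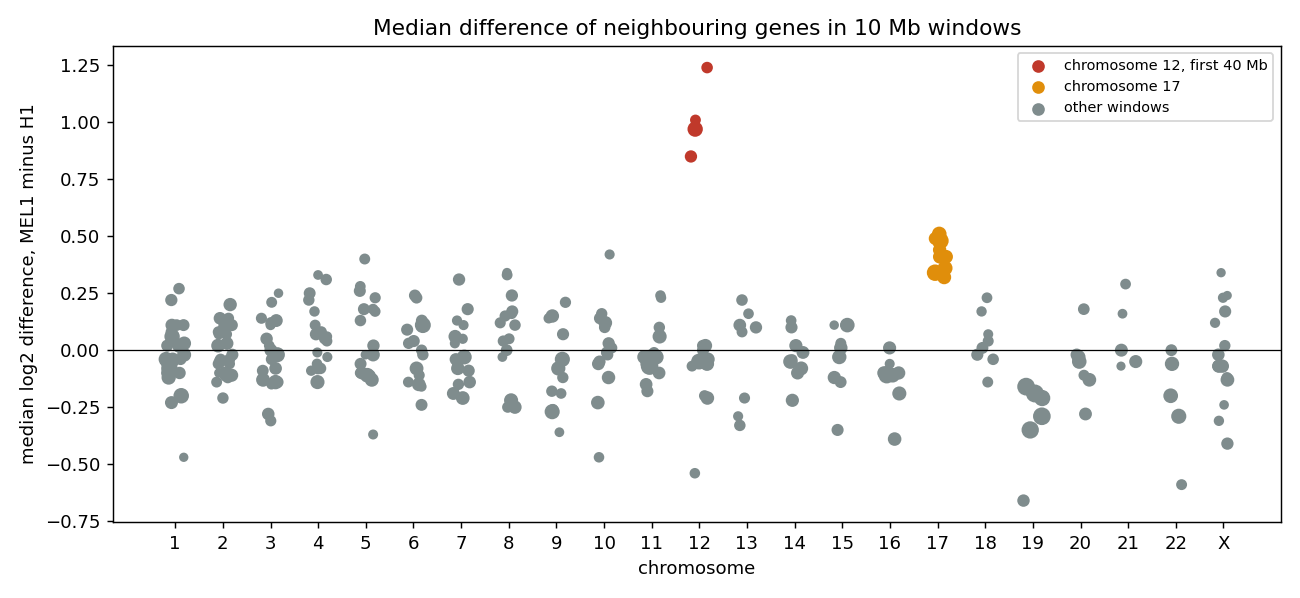
Median log2 difference, MEL1 minus H1, of genes averaging 1 CPM or more in windows of 10 Mb, by chromosome, with larger points for more genes. The 4 windows of the first 40 Mb of chromosome 12 (red) lie between 0.85 and 1.24, and those of chromosome 17 (orange) all lie above 0.

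Metabolic genes are read with that stretch in mind. Of 26 hypoxia and glycolysis genes, 10 were lower and 4 higher in MEL1, with a median of -0.57, and 6 were lower without the second MEL1 KD1 library. Among those higher, the glycolytic enzyme genes GAPDH, at 5950 to 10383 CPM in MEL1 and 2465 to 4463 CPM in H1 (1.15, SE 0.12), and TPI1 (1.09, SE 0.13) and the glucose transporter gene SLC2A3 (1.09, SE 0.27) lie on the first 40 Mb of chromosome 12 and differed by about its median. The fourth, ALDOC, an aldolase, lies on chromosome 17 (0.85, SE 0.2). NDRG1, a hypoxia-induced gene, was at 10.1 to 47.8 CPM in MEL1 and 15.2 to 200 CPM in H1, overlapping, with the H1 KD1 libraries highest at 200 and 134 CPM (-1.78, SE 0.39, edgeR adjusted p = 0.00658). PFKFB4, a regulator of glycolysis, was at 16.6 to 48.7 and 23 to 192 CPM and overlapped as well (-1.43, SE 0.31).

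Proliferation genes differed little in size: 11 of 22 were higher and 1 lower, with a median of 0.32. AURKB, a mitotic kinase, was at 106 to 139 CPM in MEL1 and 68.4 to 88 CPM in H1 (0.64, SE 0.11), and BIRC5, which encodes survivin (0.65, SE 0.13), lies with it on chromosome 17. MCM3, a replication licensing factor of chromosome 6, differed by 0.64 (SE 0.13), while MKI67 overlapped and was not called (-0.24, SE 0.21, edgeR adjusted p = 0.396). Of 18 p53 targets and apoptosis genes, 10 were higher and 2 lower, with a median of 0.58. PMAIP1, the apoptosis gene NOXA, was at 48.4, 53.7, 64.3 and 14.6 CPM in MEL1 and 3.92 to 12.7 CPM in H1 (2.59, SE 0.37), and PHLDA3, an inhibitor of AKT, at 14.9 to 21.3 and 5.34 to 8.09 CPM (1.47, SE 0.15). TIGAR, a regulator of glycolysis on the first 40 Mb of chromosome 12, differed by 2.4 (SE 0.13).

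Of 29 interferon and RNA sensing genes, 8 were higher and 6 lower, with a median of 0.05. The membrane proteins IFITM1, at 293 to 528 CPM in MEL1 and 44.8 to 82.5 CPM in H1 (2.57, SE 0.15), and IFITM3 (1.32, SE 0.12) were higher. IRF7, a transcription factor of the interferon response, was at 3.25, 5.37, 7.28 and 2.8 CPM in MEL1 and 0.0426 to 3.27 CPM in H1 (2.92, SE 0.68, edgeR adjusted p = 0.00664). IFIT2, which interferon induces, was at 2.5, 2.7, 3.57 and 0.291 CPM in MEL1 and 0.161 to 1.26 CPM in H1 (1.54, SE 0.37, edgeR adjusted p = 0.00447). Both were called higher although the lines overlapped, and the call for IRF7 was lost with the KD1 libraries by themselves, where the first H1 KD1 library held the highest H1 value. BST2 (-1.63, SE 0.16), IFI44L (-3.13, SE 0.43) and MX2 (-0.87, SE 0.15), also induced by interferon, were lower, so the list had no shared direction. Of 21 genes of the m6A machinery, 5 were higher and 2 lower, with a median of 0.09. METTL16, a separate m6A methyltransferase, was at 115 to 124 CPM in MEL1 and 78.8 to 83.6 CPM in H1 (0.54, SE 0.08), and lies on chromosome 17, as does the m6A reader gene IGF2BP1 (0.57, SE 0.1). ZC3H13, a subunit of the writer complex, was lower (-0.69, SE 0.16).

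Whether the line difference depended on treatment was tested by the interaction of line and treatment, in a fit of the 6 group means. MEL1 SCR and MEL1 KD2 are single libraries there, so each is assumed to vary like the other groups. By edgeR's test 525 genes (2.12%) were called, and 232 of these kept 1 direction in all 3 treatments. The count fell to 49 and 54 without either H1 KD1 library, to 110 without the second MEL1 KD1 library, to 244 and 284 without either H1 KD2 library and to 285 without the MEL1 SCR library. It was 1670 with DESeq2. POU5F1 differed by 3.03 (SE 0.24) with SCR, 5.07 (SE 0.24) with KD1 and 3.03 (SE 0.24) with KD2, and NANOG by 2.77 (SE 0.32), 5.6 (SE 0.33) and 3.43 (SE 0.33), with adjusted p = 0.0227 and 0.0354 for the dependence. PAX6 was lower in MEL1 in each treatment, by -9.15 (SE 0.54), -8.49 (SE 0.31) and -6.06 (SE 0.36). Line differences of crest and dorsal genes also varied between the treatment groups. In the order SCR, KD1 and KD2, PAX3 differed by -1.03 (SE 0.17), -1.2 (SE 0.13) and 1.18 (SE 0.15). ETS1 differed by 2.17 (SE 0.19), 2.03 (SE 0.17) and 4.57 (SE 0.2), and FOXD3 by 1.95 (SE 0.38), 2.21 (SE 0.33) and 5.52 (SE 0.4). For each of these 3 genes the SCR and KD2 values each rest on 1 MEL1 library, so hairpin and library cannot be told apart.

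**Figure D5:**
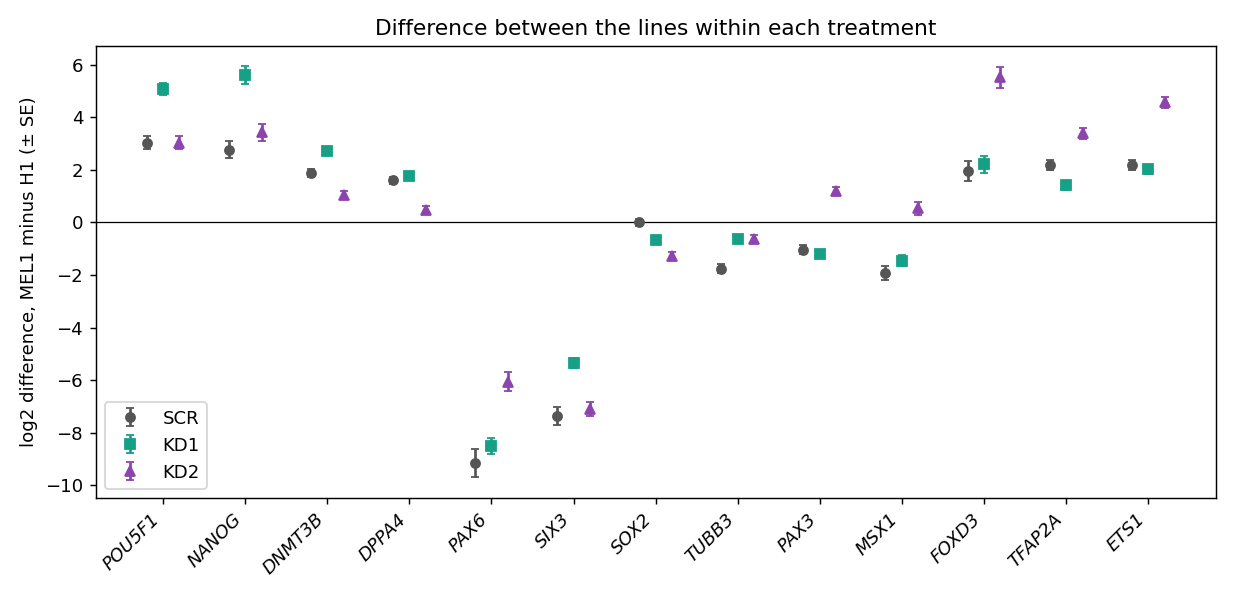
Log2 difference, MEL1 minus H1, with its SE as bars, within SCR (grey circles), KD1 (green squares) and KD2 (purple triangles), for 13 genes whose line difference depended on treatment. POU5F1 and NANOG lie above 0 and PAX6 and SIX3 below 0 in each treatment, while PAX3 and MSX1 lie below 0 with SCR and KD1 and above 0 with KD2.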

How the data were processed

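The authors deposited 1 table of estimated counts per Ensembl gene identifier (65969 identifiers), whose totals differ between libraries. Per the submitters' processing notes, fastp and kallisto were used. Which build and annotation they used, and how strand was treated, is not given in the sources used here. Libraries were grouped by the line and treatment labels.

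Estimated counts were rounded. Genes were kept with filterByExpr over the 6 groups, scaled with TMM and tested in R 4.3.3 with edgeR 4.0.16 and limma 3.58.1, by a robust quasi-likelihood fit of treatment plus line. The SE is the size of the log2 difference over the square root of F. Dependence on treatment was a 2-term F-test in a fit of group means. The fits were also run on simulated counts with known changes. Far fewer genes changed there than were called here, evenly up and down, and none depended on treatment. That setting does not cover differences as widespread as these. Symbols came from a name table (59243 identifiers found, 41981 with a symbol) and positions from GENCODE 29 on GRCh38, matched by identifier for 90.7% of tested genes. Deviations by chromosome are log2 of CPM plus 0.1 against the H1 mean.

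The libraries were chosen by their labels alone. That choice, the lists and the thresholds were made with earlier results of these data known. Named genes are METTL14, a set of key genes, the 12 largest rises and falls without overlap and a mean of at least 5 CPM, and up to 4 called members per list and direction with at least 1 CPM. Genes named beyond that rule, chosen after their values were seen, are POLD1, NR1H2, EMC10, MYH14, CLEC11A, C19orf48P, RRAGB, MAGEH1, USP51, OXCT1, PTCH1, EMX2, PRDM14, UTF1, VIM, HES1, JRK, RPL39P3 and ZNF582-DT. A comparison of promoter CpG content between gene sets was not made, because 78.3% of tested coding genes had an entry in the promoter table, under the 80% needed. Counting intervals are exact. No label numbers the replicates, so nothing was paired. Some genes covered by the rule are not reported here.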

Additional observations from a re-analysis of the deposited data

Results flagged for a closer look

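A library stood far from the others of its line in 13 of 262 combinations of gene and line. This is about the share that chance marks, 1 in 20 groups, so the flags below are a description. Treatments were pooled within each line. In 8 of the 13 it was the MEL1 KD2 library. It was highest for PAX3 at 129 CPM, LMX1B at 53.8 CPM, FOXD3 at 47.5 CPM, SOX10 at 41.3 CPM, MSX1 at 35.4 CPM, WNT4 at 24.3 CPM and NODAL at 2.01 CPM, and lowest for DPPA4 at 258 CPM. The MEL1 SCR library was highest for METTL14 at 49.5 CPM, where the other MEL1 libraries carry a hairpin against it, and for ZNF280B at 10.8 CPM. The second MEL1 KD1 library was highest for MFNG at 4 CPM, the second H1 SCR library for ELAVL4 at 12.7 CPM, and the first H1 KD1 library for IRF7 at 3.27 CPM. MEL1 KD2 is a single library, so its values cannot be told apart from an effect of the hairpin.

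For 21 of 159 named genes tested, the difference between the lines depended on treatment by edgeR's test. Over all 24778 genes tested, 525 (2.12%) did. Of the 159, 151 were called between the lines and many were named for that, so the 2 shares are not like for like. Leaving out single libraries moved the count over all genes as far down as 49. Adjusted p was 0.00231 for PAX3, 0.00467 for ETS1, 0.0188 for MSX1 and 0.0195 each for DNMT3B, KDR and TFAP2A. It was 0.0227 for POU5F1, 0.0231 for DPPA4, 0.0243 for FOXD3, 0.0252 for PMAIP1, 0.0272 for PCDHA6 and 0.03 for AXIN2. It was 0.0318 for SIX3, 0.0321 for SOX2, 0.0354 each for COL3A1 and NANOG, 0.0392 for OTX2, 0.042 for PAX6, 0.0427 for TUBB3, 0.0469 for ZIC1 and 0.0484 for GDF3. DNMT3B differed by 1.89 (SE 0.16) with SCR, 2.7 (SE 0.14) with KD1 and 1.05 (SE 0.16) with KD2. KDR differed by -0.65 (SE 0.13), -0.54 (SE 0.11) and 0.56 (SE 0.13) in the same order.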

How the results depend on the processing

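Under 23 alternatives, the number of genes called between the lines ran from 9090 (mean of at least 1 CPM) to 12098 (group means), against 10826, and the share of calls higher in MEL1 from 47.2% to 52.7%. With the GC and length trend removed, 10543 were called, and 9294 of the 9296 shared calls kept their direction. Of 151 called genes with printed values, 145 stayed called in the same direction in every alternative, and none of the 159 tested changed sign. The exceptions among called genes were SALL4, TCF7L2, NR1H2, POLD1, SLC2A3 and IRF7, the last 3 lost only with the KD1 libraries by themselves. Of 58 list counts, 31 stayed within 1.5 times in every alternative, and most of the others were counts of a few genes. The count of genes whose line difference depended on treatment, 525, was 3031 with no filter on low counts, 1670 with DESeq2, 324 without the robust fit and 1182 with the GC and length trend removed. Leaving out each library in turn gave 49 to 557, and before adjustment 5172 genes fell below 0.05. The causes of these shifts were not tested. No paired analysis was possible because the labels carry no replicate numbers. The MEL1 SCR library had the fewest counts, and genes near 0 there are the least precise.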

Other observations

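Of 14 tested choroid plexus and pigment epithelium genes, 8 were lower in MEL1 and 2 were higher, with a median of -0.64, and the number higher ran from 0 to 2 over the alternatives. RLBP1, a retinoid binding protein of pigment epithelium, was at 0.305 CPM or less in MEL1 and 1.56 to 3.19 CPM in H1 (-3.79, SE 0.42), and DCT, a melanin synthesis enzyme, at 0.143 to 0.761 and 2.01 to 5.94 CPM (-3.47, SE 0.34). Neither overlapped between the lines. Genes of the 20q11.21 segment, which is often gained in cultured stem cells, and of culture adaptation were split, 6 higher and 6 lower of 20, with a median of -0.11. Among genes often silenced or variable between stem cell lines, 9 of 22 were higher and 11 lower. IRX2 was at 97.9 to 140 CPM in MEL1 and 24.6 to 32.1 CPM in H1 (2.12, SE 0.11, edgeR adjusted p = 2.58e-08).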
